A study of Mus musculus with 37 samples.

Results

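The genes described here are 32 transcripts that mark macrophages, monocytes, T cells, B cells and granulocytes, read out in RNA pulled down from mouse podocytes. They were picked by name, as known marker genes, and they are 32 of the 32108 genes of the count table. The rule set no threshold on measured values, but the list was drawn up with earlier results of these data known. The RNA came from podocyte-specific TRAP, translating ribosome affinity purification, in which a tagged ribosomal protein made in one cell type lets its ribosomes and their mRNA be captured from a whole tissue.

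In the type 2 model, 17 TRAP libraries came from eNOS-/- mice and eNOS-/- db/db mice on C57BL/6, with 5 control and 5 diabetic libraries at 3 months of age and 4 control and 3 diabetic libraries at 6 months. Both arms of this model lacked eNOS, the endothelial nitric oxide synthase encoded by Nos3, and the diabetic arm also carried db/db, the mutated leptin receptor. In the type 1 model, 19 TRAP libraries came from C57BL/6 mice given streptozotocin (STZ), a toxin of insulin-producing cells, or no STZ. There were 4 control and 5 diabetic libraries at 3 weeks of STZ and 3 months of age, and 5 and 5 at 24 weeks of STZ and 8 months of age, and their labels named no genotype. The last library was total RNA of 1 whole kidney from a 3-month eNOS-/- control. The labels do not say that each library is a separate animal, so the p-values measure the spread between these libraries, which may be partly technical.

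Leukocytes are not part of the podocyte lineage, but the kidney holds resident macrophages and a small population of T cells, and both enter the glomerulus and interstitium in diabetic kidney disease. Macrophages depend on colony stimulating factor 1, sensed by the receptor Csf1r, and monocytes follow the chemokines read by Ccr2 and Cx3cr1. Fc receptors such as Fcgr1 and Fcgr3 bind antibody and signal through the shared gamma chain Fcer1g, much as other myeloid receptors signal through Tyrobp, while T cell receptors signal through the Cd3 chains and the kinase Lck. None of these is a podocyte gene in textbook accounts. In bulk libraries such as these, fewer leukocytes and less leukocyte RNA per cell cannot be told apart.

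The 36 TRAP libraries held 6702120 to 37786025 counts and between 14320 and 21290 detected genes. The podocyte markers were present in every library: the nephrin gene Nphs1 ran from 100.6 to 2048 CPM (counts scaled to library size by the trimmed mean of M values, TMM) and Wt1 from 166.1 to 2270. Nos3 had 2.01 to 10.4 CPM in the libraries labelled eNOS-/- and 0 to 17.6 CPM in the type 1 model, and Lepr was counted in both models. Gene totals do not separate the altered part of either gene, so these counts check neither genotype. Some libraries stood apart and are named wherever a result rests on them. Diabetic libraries 4 and 5 of the 3-month type 2 group had the highest sums of the 32 genes in that group, diabetic library 3 at 6 months had the lowest total of all, and diabetic library 4 at 3 weeks of STZ had the fewest detected genes.

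Levels of the 32 genes were compared with each other per length, in the deposited FPKM (fragments scaled to gene length and library total), as the mean over the 36 TRAP libraries. Lyz2, the macrophage lysozyme, was highest at 22.3 ± 20.8 FPKM (SD, n = 36), followed by Csf1r at 8.41 ± 3.10, the lysosomal membrane protein gene Laptm5 at 5.01 ± 6.34 and Fcer1g at 3.77 ± 3.05. The next places, from Coro1a at 2.83 to Tyrobp at 2.43 FPKM, differed by less than their standard deviations, as did Cd68 at 1.62 and the F4/80 gene Adgre1 at 1.43. Ptprc, which encodes the pan-leukocyte phosphatase CD45, ranked 20 at 0.626 ± 0.501 FPKM. Lymphocyte genes filled most of the lower ranks: Cd3e had 0.779, Cd4 0.448, Cd79a 0.280 and Cd8a 0.257 FPKM, all below their own standard deviations except Cd4, whose SD was 0.446. At the bottom, the calprotectin gene S100a8 had 0.0807 FPKM, with no count in 28 libraries and at most 8 counts in any, and Ms4a1, the B cell gene for CD20, had 0.00528 FPKM with at most 4 counts. Lyz2 and Ly6c2 have near-identical neighbours, Lyz1 and Ly6c1, and Fcgr3 has related paralogs, so the authors' counting could split or share their reads.

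Compared with the whole kidney, the pull-down of 3-month type 2 controls held less of nearly every member. Here CPM were taken over the library total, and 0.5 was added before each ratio. S100a9 alone was higher in TRAP than in kidney by its mean, 1 of 32, where 49.4% of the 17180 genes tested in the type 2 model were higher. The median ratio of TRAP to kidney was 0.556, that is 1.8 times more in kidney, against 0.993 for all tested genes and 72.8 for the 10 podocyte markers. Ptprc had 5.14 ± 1.60 CPM (SD, n = 5) in TRAP and 12.8 CPM in kidney, with an exact Poisson 95% interval of 11.5 to 14.2 that covers counting error only. Lyz2 had 7.94 ± 1.24 and 19.9 CPM (18.3 to 21.7), and Fcgr3 1.76 ± 0.317 and 5.35 CPM (4.53 to 6.28). Csf1r was closer, at 36.6 ± 2.84 against 51.4 CPM (48.8 to 54.2). For 17 members all 5 TRAP libraries lay below the kidney interval, and for the other 15 the ranges overlapped. With 1 kidney library there is no test. The median ratio was 0.703 in the deposited FPKM. As FPKM are counts over length and library total, a gene's ratio without an added constant is the same in both scales. The constant pulls the ratios of genes with low values towards 1, so the median ratios understate the gap to the kidney.

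**Figure D1:**
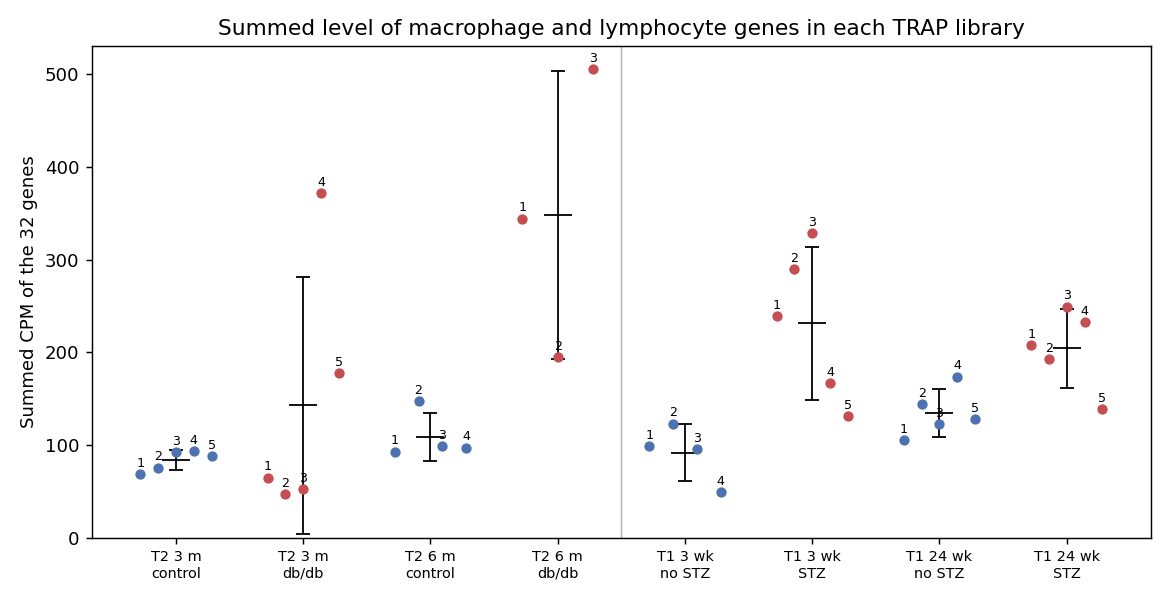
Summed CPM of the 32 genes in each of the 36 TRAP libraries, by group, with the replicate number of each library above its point. Blue points are controls, red points are diabetic libraries, and bars give the group mean and SD. At 6 months of age in the type 2 model the 3 diabetic libraries, at 195 to 506 CPM, lie above all 4 controls. At 3 months of age diabetic libraries 4 and 5 stand apart from the others.

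The type 2 model at 6 months of age asked which transcripts differ in podocyte pull-downs between eNOS-/- db/db mice and eNOS-/- controls. In these libraries 12 of the 32 members rose and none fell, by edgeR's quasi-likelihood test with Benjamini-Hochberg adjustment at 0.05, while 11.2% of all tested genes were called higher and 11.7% lower. At an unadjusted p under 0.05 there were 17 members, where 36.9% of all genes passed. The members that rose included shared leukocyte membrane protein genes (Laptm5, Cd53 and Cd52), macrophage genes (Lyz2, Adgre1, Mrc1 and Cd14), the fractalkine receptor gene Cx3cr1, the Fc receptor pair Fcgr3 and Fcer1g, and the T cell genes Cd3e and Lck. Their log2 changes ran from 1.74 for Fcer1g to 3.70 for Cd3e. The diabetic libraries summed to 344.5, 195 and 506 CPM over the 32 genes, against 93.0, 148, 98.7 and 97.2 CPM in the controls, and the groups did not overlap.

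Among the shared leukocyte genes, 3 of 5 rose. Laptm5 had 34.9, 17.3 and 122 CPM in the diabetic libraries and 6.06, 14.5, 10.6 and 11 CPM in the controls. Every diabetic library was above every control, but diabetic library 3 was far above the other diabetic libraries. The log2 change was 2.47 ± 0.70 (SE; adjusted p = 0.0197 by edgeR). Cd53, a tetraspanin gene of leukocytes, had 3.86, 3.07 and 6.72 CPM against 0, 0.639, 0.627 and 0.678 CPM, a log2 change of 3.19 ± 0.85 (edgeR adjusted p = 0.0128). Again the groups were separate, with 1 control library at 0. Cd52 changed by 2.00 ± 0.64. Ptprc, with 23.8, 12.3 and 37.5 CPM against 4.17, 10.1, 8.77 and 5.56 CPM, also showed no overlap, but its log2 change of 1.78 ± 0.66 missed the threshold (edgeR adjusted p = 0.0575), as did that of the actin regulator Coro1a (2.03 ± 0.76, adjusted p = 0.0628).

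Among the macrophage and monocyte genes, 4 of 6 rose. Lyz2 had 83.3, 52.2 and 76.7 CPM in the diabetic libraries against 12, 11.9, 15.7 and 13.8 CPM, which is 70.8 ± 16.4 (SD, n = 3) against 13.3 ± 1.79 (n = 4). The gap between the groups was wider than the range within either, and the log2 change was 2.42 ± 0.67 (edgeR adjusted p = 0.0183). Adgre1 had 9.72, 5.39 and 19.1 CPM against 2.74, 1.44, 2.36 and 2.10 CPM, with a log2 change of 2.41 ± 0.73 (edgeR adjusted p = 0.0240). Cd14, the lipopolysaccharide co-receptor, had 13, 9.62 and 17 CPM against 5.80, 4.15, 0.675 and 0.814 CPM, and its controls fell into a higher and a lower pair that all lay under the diabetic libraries. Its log2 change was 2.23 ± 0.66 (edgeR adjusted p = 0.0215), and that of the mannose receptor gene Mrc1 was 2.16 ± 0.70. The lysosomal glycoprotein gene Cd68, with 4.14, 2.38 and 4.18 CPM against 2.09, 0.852, 0.916 and 0.712 CPM, did not overlap but was not called (1.66 ± 0.70, edgeR adjusted p = 0.0937), nor was Aif1 (2.19 ± 1.19), the gene for Iba1.

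Among the growth factor and chemokine receptors, Cx3cr1 rose and Csf1r did not. Cx3cr1 had 18.6, 10.1 and 38.8 CPM in the diabetic libraries and 4.43, 4.90, 4.00 and 4.88 CPM in the controls, with no overlap and a log2 change of 2.31 ± 0.74 (edgeR adjusted p = 0.0333). Csf1r had 58.1, 28 and 45 CPM against 29.4, 71.4, 32.5 and 34.5 CPM. The highest value belonged to a control and the lowest to a diabetic library, and the log2 change was 0.07 ± 0.38 (edgeR adjusted p = 0.907). Without control library 1, 3 or 4, or diabetic library 1, its sign turned (-0.07, -0.04, -0.01 and -0.20). Csf1r lies on the forward strand and shares 873 of its 5774 annotated exon bases (15.1%) with the opposite-strand gene Hmgxb3, which had 45.9 to 92.5 CPM over the TRAP libraries. The counting's strand setting was not given in the sources used here, so reads of the shared bases cannot be assigned. Ccr2, which guides monocytes out of the marrow, was not called at 1.77 ± 0.86.

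Of the Fc receptors and their adaptors, Fcgr3 and Fcer1g rose. Fcgr3 had 12, 5.55 and 10.8 CPM in the diabetic libraries and 2.28, 2.45, 1.74 and 1.86 CPM in the controls. The groups were separate and the controls tight, and the log2 change of 2.19 ± 0.56 had the lowest p of all members (edgeR adjusted p = 0.0101). Fcer1g changed by 1.74 ± 0.62 (edgeR adjusted p = 0.0478). The high-affinity receptor gene Fcgr1 (0.52 ± 0.77) and the adaptor gene Tyrobp (0.82 ± 0.72) were not called, and their groups overlapped.

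The T cell genes Cd3e and Lck rose. Lck had 2.25, 3.44 and 4.06 CPM against 0.261, 0.266, 1.11 and 0.441 CPM, with no overlap and a log2 change of 2.62 ± 0.82 (edgeR adjusted p = 0.0287). Cd3e, a signalling chain of the T cell receptor complex, had 2.25, 0.687 and 7.23 CPM against 0.261, 0.160, 0.289 and 0.305 CPM, so its size was set largely by diabetic library 3 even though the groups did not overlap. Its log2 change was 3.70 ± 1.18 (edgeR adjusted p = 0.0303), and it passed the filter on low counts through the diabetic libraries. Cd4 (1.98 ± 0.99), Cd8a (2.13 ± 0.97) and Cd3g (2.79 ± 1.43) were not called, and Cd3d and the granule gene Nkg7 were too low to test. Ccl5, a chemokine of cytotoxic cells, did not overlap but was not called (1.56 ± 0.72).

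B cell and granulocyte genes stayed near the limit of detection. Cd79a, part of the B cell receptor, had 0.844, 1.06 and 1.52 CPM in the diabetic libraries and 0.652, 0.213, 0 and 0 CPM in the controls. The groups did not overlap, but the log2 change of 2.43 ± 1.66 was not called (edgeR adjusted p = 0.298). S100a8 had no count in the diabetic libraries and 1 control above 0, at 0.289 CPM, and S100a9 had no count in any of the 7 libraries.

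In all, 19 of the 32 members had every diabetic library above every control, where 13.8% of all tested genes did. The median log2 change was 2.18 over the 28 members tested, against -0.01 over all tested genes. Of those 28, 7 passed the filter only through the diabetic libraries and had to differ upward if at all. Of the 7, Aif1, Cd3e, Cd79a and Cd79b are among the 19 without overlap. The count of 19 and the median therefore describe the members and are no support. The calls rested heavily on diabetic library 3, which had the highest value for 22 of the 30 members detected in its group and only 6702120 counts. Without it 1 member was called, Fcgr3, where 5.03% of all genes in that fit were called higher. Without diabetic library 2 there were 15 (13.1% of all genes), and without diabetic library 1 there were 8 (8.58%). Leaving out control library 1, 2, 3 or 4 left 6, 6, 5 and 4 members, with 8.12%, 9.11%, 7.9% and 7.88% of all genes called higher.

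Genes that are not members but mark the same cells moved likewise. The lists of other genes used here and below were also chosen with earlier results of these data known. Their counts therefore describe these genes and are no independent support. Their calls without diabetic library 3 are not given here. Of 20 other macrophage genes, 14 rose and none fell. They included Plek, at 13, 7.14 and 25.8 CPM against 1.76, 2.40, 3.95 and 2.24 CPM (log2 change 2.56 ± 0.62, edgeR adjusted p = 0.00773), the complement receptor gene Itgam (3.34 ± 0.84, edgeR adjusted p = 0.00980), and the lipid receptor gene Trem2, at 1.97, 2.48 and 7.10 CPM where 3 controls had no count and the fourth 0.0339 CPM. With controls this low, Trem2 could hardly differ downward. Of 18 other T and NK cell genes, 12 were tested and Il7r (4.14 ± 1.29), Il2rb (3.42 ± 1.06) and Lat (4.54 ± 1.55) rose. The neutrophil receptor gene Csf3r (3.5 ± 1.16) rose, the other 8 genes of its list being too low to test, and none of 8 tested B and plasma cell genes was called, with 3 at an unadjusted p under 0.05. The 10 B and plasma cell genes summed to 261.9, 116.1 and 359.8 CPM in the diabetic libraries and to 26.5 to 79.7 CPM in the controls, without overlap. Among the ligands of the member receptors, Csf1, the ligand of Csf1r, rose from 7.82, 11.3, 20.3 and 10.3 CPM to 39.6, 36.9 and 54.9 CPM (1.82 ± 0.43, edgeR adjusted p = 0.00638).

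Markers of other cells moved with these groups. The 10 podocyte markers summed to 24940 to 28910 CPM in the controls and to 8512, 14650 and 2880 CPM in diabetic libraries 1 to 3, and 8 of the 10 fell. Of the proximal tubule markers 6 of 9 fell (8567 to 11230 CPM in controls, 2534 to 5901 in diabetic libraries), 4 of 7 mesangial and smooth muscle markers rose (124.5 to 183.1 against 249.3 to 627.7 CPM), and 4 of 6 parietal epithelial markers rose (168.2 to 206.8 against 234.0 to 416.8 CPM). Diabetic library 3, with the highest sum of the 32 members, had the lowest sum of podocyte markers. The part of these shifts in the members' changes was not tested.

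**Figure D2:**
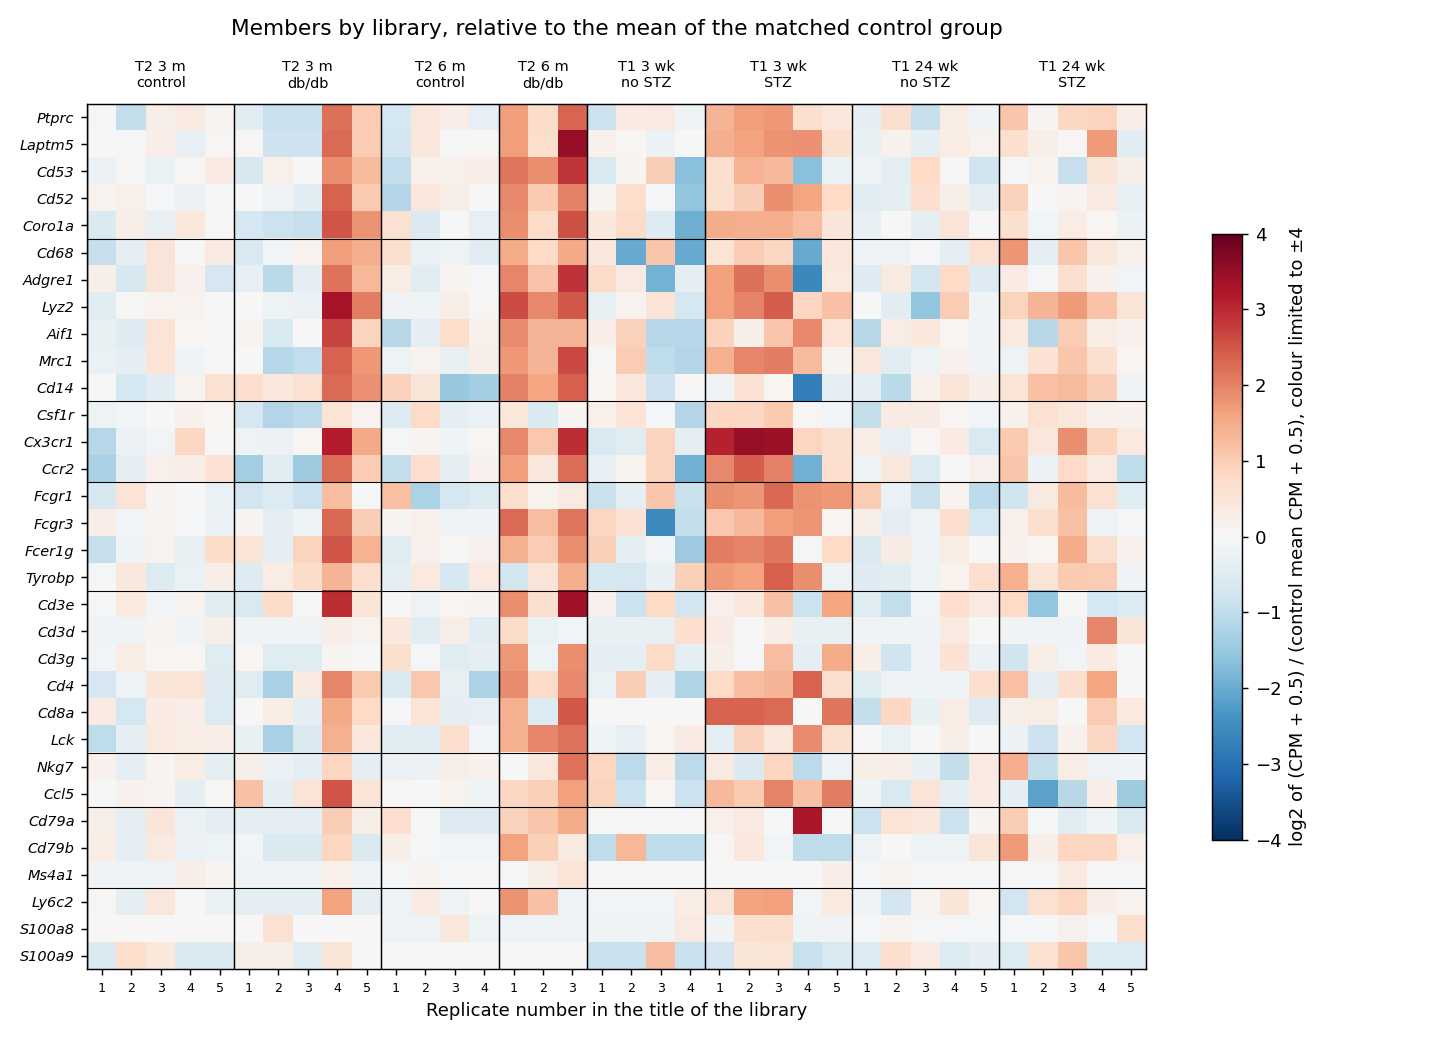
Each of the 32 genes (rows, grouped by role) in each of the 36 TRAP libraries (columns, by group and replicate number), as the log2 ratio of CPM + 0.5 to the mean CPM + 0.5 of the controls of the same model and time. Red is above and blue below the controls, with the colour limited at 4 either way. At 3 months of age in the type 2 model the red columns are diabetic libraries 4 and 5, and the row of Csf1r stays pale throughout.

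The stretches just before the start sites of leukocyte genes often carry GAGGAA, a purine-rich core bound by the ETS factor PU.1, the product of Spi1 and a known regulator of myeloid genes. Spi1 itself had 9.60, 6.61 and 10 CPM in the diabetic libraries of the 6-month type 2 model against 2.48, 3.35, 1.16 and 2.27 CPM (log2 change 1.93 ± 0.54, edgeR adjusted p = 0.0167). The letters GAGGAA, or TTCCTC for the other strand, stood within the 250 bases before a start site of 15 of the 23 members in the RefSeq table (65.2%) and of 25.9% of its 27025 genes. A match is a description of the letters and not a binding site. The 100 bases upstream of 3 genes are shown, all of which hold the motif and no annotated exon base. Those of Cd3d, a gene too low to test, also do and are not shown. Fcgr3 (chr1:171059404-171059503, minus strand) and Cd53 (chr3:106790150-106790249, minus strand) rose at 6 months. Fcgr1 (chr3:96293970-96294069, minus strand), picked after its values were seen, holds the motif and was called in no comparison. The Fcgr3 window precedes a RefSeq start that lies inside the annotated gene (chr1:171051174-171064935), and the other windows abut the annotated ends of Cd53 (chr3:106759921-106790149) and Fcgr1 (chr3:96282909-96293969). Sequences are from RefSeq on GRCm38.p6, 5′ to 3′ along each gene, with the motif in capitals, and its first base is at position -6 for Fcgr3, -39 for Cd53 and -55 for Fcgr1 relative to the start.
Fcgr3: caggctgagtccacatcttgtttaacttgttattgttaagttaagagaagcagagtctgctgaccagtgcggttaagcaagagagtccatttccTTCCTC
Cd53: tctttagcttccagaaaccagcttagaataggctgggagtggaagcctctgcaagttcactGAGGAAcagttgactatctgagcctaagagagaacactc
Fcgr1: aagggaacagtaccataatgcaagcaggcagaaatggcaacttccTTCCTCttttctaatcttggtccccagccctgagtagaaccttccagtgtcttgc
The motif was thus present in the window of a gene that rose and in that of a related receptor gene that did not pass the test. Among the members that rose at 6 months, Laptm5, Cd53, Mrc1, Fcgr3, Cd3e and Lck held it within 250 bases of a start site. Lyz2, Cx3cr1 and Fcer1g did not, and Cd52, Adgre1 and Cd14 were not in the RefSeq table.

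At 3 months of the type 2 model the same comparison called no member in either direction by edgeR, with 2.03% of all tested genes called higher and 1.96% lower. At an unadjusted p under 0.05 there were 9 members, against 16.2% of all genes, limma on the deposited FPKM called none, and DESeq2 called 4, Lyz2, Cd14, Fcer1g and Ccl5, with 2.51% of all genes it fitted called higher. The diabetic libraries summed to 65.0, 47.2, 52.3, 372 and 177 CPM over the 32 genes, against 69.0, 75.7, 92.2, 93.4 and 88.4 CPM in the controls. Diabetic libraries 1 to 3 were below every control and 4 and 5 far above them, so that no member had all 5 diabetic libraries above the controls, where 2.9% of all tested genes did.

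The macrophage genes showed this split. Lyz2 had 8.02, 6.79, 6.73, 83.2 and 34.3 CPM in the diabetic libraries and 5.76, 8.25, 8.85, 8.79 and 8.11 CPM in the controls. Ptprc had 3.67, 2.54, 2.54, 25.6 and 11 CPM against 4.91, 2.41, 6.12, 6.84 and 5.62 CPM, and Adgre1 had 1.12, 0.467, 1.08, 8.81 and 4.64 CPM against 1.90, 0.805, 2.44, 1.82 and 0.796 CPM. In each, diabetic libraries 1 to 3 lay among or under the controls. The log2 changes were 1.80 ± 0.57 for Lyz2 (edgeR adjusted p = 0.0977), 0.80 ± 0.55 for Ptprc and 1.05 ± 0.61 for Adgre1 (0.424 likewise). Cd68, at 0.435, 0.830, 1.08, 4.09 and 3.38 CPM against 0.260, 0.604, 1.54, 0.912 and 1.34 CPM, followed the same division.

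Cd3e had 0, 0.778, 0.264, 5.45 and 0.555 CPM in the diabetic libraries, against 0.223, 0.503, 0.199, 0.332 and 0.0497 CPM. Here library 4 alone stood out. Csf1r had 22.9, 15.9, 17.3, 53.5 and 40.2 CPM against 32.1, 34.0, 37.3, 41.0 and 38.9 CPM, so libraries 1 to 3 were below every control and library 4 above them all, with a log2 change of -0.29 ± 0.31 (edgeR adjusted p = 0.728). Cd79a was at 0 in diabetic libraries 1 to 3 and at 0.765 and 0.252 CPM in the others, and S100a8 was detected in diabetic library 2 alone, at 0.259 CPM.

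Diabetic library 4 had the highest value of its group for 31 of the 32 members and lay above all controls for 28. Diabetic library 5 lay above all controls for 21 members, and libraries 1, 2 and 3 for 2, 2 and 3. The share of all tested genes above all controls was 22.1% to 23.8% in libraries 1 to 3, 32% in library 4 and 26.7% in library 5. Without libraries 4 and 5 the log2 change was -0.14 for Lyz2, -0.82 for Ptprc, -0.52 for Laptm5, -0.11 for Cx3cr1, -0.78 for Adgre1 and -0.21 for Cd68. With library 4 alone left out, that of Ptprc was -0.06. The libraries were left out because they stood high in these very genes, so these changes are descriptions.

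Libraries 4 and 5 differed in other markers too. Their podocyte markers summed to 13490 and 15120 CPM, against 24050 to 26490 CPM in diabetic libraries 1 to 3 and 22420 to 35390 CPM in the controls. Mesangial and smooth muscle markers summed to 702.6 and 446.0 CPM there and 189.7 to 248.2 CPM in the other 3, and in library 4 alone the other B and plasma cell genes reached 438.3 CPM, against 11.7 to 29.8 CPM in the other 4. Igkc, the kappa light chain constant gene, made up 226 CPM of that sum. The part of these markers in the members' values was not tested.

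**Figure D3:**
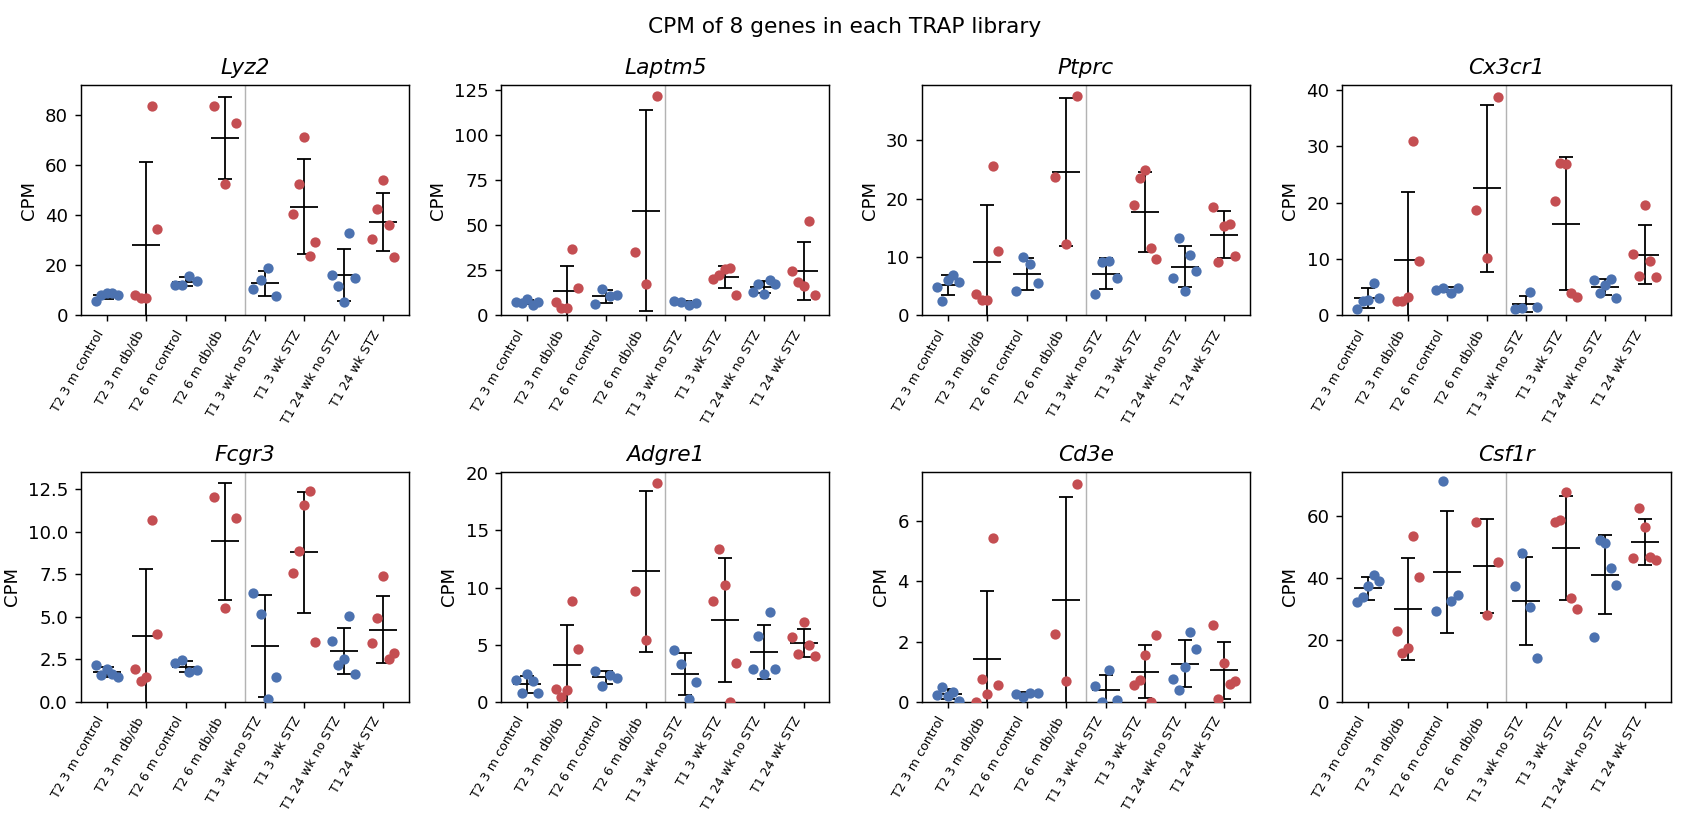
CPM of 8 of the genes in each TRAP library, by group, on linear axes that start at 0. Blue points are controls, red points diabetic libraries, and bars give the mean and SD of each group. Lyz2 in the 6-month type 2 model, at 52.2 to 83.3 CPM, lies above its controls at 11.9 to 15.7 CPM, whereas the groups of Csf1r overlap.

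In the type 1 model at 3 weeks of STZ, 6 of the 32 members rose and none fell, where 3.78% of all tested genes were called higher and 2.72% lower by edgeR. At an unadjusted p under 0.05 there were 17 members, where 20.8% of all genes passed. The 6 that rose were the leukocyte genes Ptprc and Laptm5, the macrophage genes Lyz2 and Mrc1, Cx3cr1, and Cd8a, which encodes a chain of the cytotoxic T cell co-receptor. The diabetic libraries summed to 239, 290, 329, 167 and 131 CPM and the controls to 98.9, 123, 95.6 and 49.3 CPM, with no overlap.

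Laptm5 had 20.1, 22.5, 25.5, 26.0 and 11.2 CPM in the diabetic libraries and 7.92, 7.18, 5.87 and 6.96 CPM in the controls, a log2 change of 1.58 ± 0.34 (edgeR adjusted p = 0.00742). Ptprc had 18.9, 23.6, 25.0, 11.5 and 9.66 CPM against 3.69, 9.10, 9.38 and 6.32 CPM (1.30 ± 0.37, edgeR adjusted p = 0.0358). The groups were separate for both genes, by a narrow margin for Ptprc, whose diabetic library 5 was just above the highest control. Lyz2 had 40.5, 52.5, 70.8, 23.6 and 29.2 CPM against 10.3, 14.1, 19 and 7.65 CPM, also without overlap (1.75 ± 0.42, edgeR adjusted p = 0.0143). Mrc1 had 16.4, 24.1, 25.5, 14.9 and 6.34 CPM against 6.11, 12.3, 2.67 and 2.30 CPM, and here diabetic library 5 lay within the range of the controls (1.55 ± 0.46, edgeR adjusted p = 0.0423).

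Cx3cr1 had 20.2, 27.0, 26.9, 3.98 and 3.32 CPM in the diabetic libraries and 1.13, 1.26, 4.12 and 1.39 CPM in the controls. Diabetic libraries 1 to 3 were far above all controls, while 4 and 5 were below the highest control, and the log2 change was 3.05 ± 0.60 (edgeR adjusted p = 0.00390). Cd8a had 2.08, 2.08, 1.90, 0 and 1.71 CPM and no count in any of the 4 controls. Against a floor of 3 counts over the control group it was at least 30.3-fold higher (edgeR adjusted p = 0.0123), and library 4 overlapped the controls at 0. Cd8a passed the filter on low counts through the diabetic libraries and, with its controls at 0, could not differ downward.

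Other members were not called. Adgre1 had 8.81, 13.4, 10.2, 0 and 3.42 CPM against 4.52, 3.33, 0.305 and 1.77 CPM, with diabetic library 4 lowest of all 9 (1.51 ± 0.80, edgeR adjusted p = 0.291). Cd68 had 2.43, 3.60, 3.11, 0 and 2.21 CPM against 2.19, 0, 3.89 and 0 CPM, without separation (0.59 ± 1.06). Csf1r had 58.1, 58.8, 67.7, 33.5 and 30.1 CPM against 37.5, 47.9, 30.7 and 14.1 CPM, where libraries 1 to 3 exceeded every control (0.59 ± 0.31, edgeR adjusted p = 0.291). The Fc receptor gene Fcgr1, at 2.62 to 4.09 CPM in all 5 diabetic libraries against 0 to 1.52 CPM, did not overlap and was not called (2.79 ± 1.02, edgeR adjusted p = 0.108). Cd3e, at 0.548, 0.732, 1.56, 0 and 2.21 CPM against 0.528, 0, 1.07 and 0.0535 CPM, overlapped (1.28 ± 1.16). Cd79a was at 0 in the controls and came almost wholly from diabetic library 4, at 4.28 CPM, with 0 to 0.122 CPM in the other 4. S100a8 stayed between 0 and 0.389 CPM.

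With all diabetic libraries above all controls there were 5 members, Ptprc, Laptm5, Lyz2, Fcgr1 and Ccl5, against 4.53% of all tested genes. The median log2 change over the 27 members tested was 1.55, against 0.002 over all tested genes, and 4 of the 27 passed the filter only through the diabetic libraries. Among those 4, Cd8a and Cd79a had no count in the controls and could not differ downward. The median therefore describes the members and is no support. Diabetic library 4 was of mixed pattern: it had no count of Adgre1, Cd68, Cd14, Cd53 or Ccr2, yet the highest Laptm5, Lck and Cd4 of its group. The number of detected genes moved with the groups, from 15558 to 16362 in the controls to 19712 to 21050 in diabetic libraries 1 to 3, 14320 in library 4 and 18044 in library 5. With that number as a covariate, an alternative added after the data were seen, 1 member was called, Laptm5, and 1.18% of all genes were called higher. DESeq2 called 11 members (4.03% of all genes higher), and a fit of these 9 libraries alone called 3 (2.13%).

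Outside the list, 8 of 20 other macrophage genes rose and 1 fell at 3 weeks. Mpeg1, a pore-forming protein gene of macrophages, had 51.1, 76.4, 65.0, 45.1 and 26.8 CPM against 10.1, 11.1, 14.0 and 10.5 CPM, with no overlap (2.20 ± 0.30, edgeR adjusted p = 0.000184). The protease gene Ctss (2.59 ± 0.39) and the oxidase gene Cybb (2.32 ± 0.43) also rose, and the inhibitory Fc receptor gene Fcgr2b fell by 0.89 on the log2 scale. Of the receptor ligands Csf1 rose (2.09 ± 0.42, edgeR adjusted p = 0.00515), as did Ccl2, the ligand of Ccr2, with no count in the controls and 2.78, 1.89, 3.5, 0 and 1.21 CPM in the diabetic libraries (edgeR adjusted p = 0.0288). With its controls at 0, Ccl2 could not differ downward. Lat was the sole call among 9 tested T and NK cell genes.

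The podocyte markers summed to 10050, 10720 and 9683 CPM in diabetic libraries 1 to 3, which had the most member RNA, to 22450 and 19900 CPM in libraries 4 and 5, and to 11180 to 23510 CPM in the controls, and none of the 10 was called. Proximal tubule markers fell for 6 of 9, from 9371 to 15740 CPM in sum to 3646 to 6004 CPM. Endothelial markers summed to 488.8, 522.0, 518.9, 226.0 and 250.4 CPM against 180.7 to 486.8 CPM in the controls, and 1 of 8 rose. Parietal epithelial markers summed to 226.3 to 328.5 CPM against 183.2 to 224.5 CPM, without overlap, and 3 of 6 rose. Mesangial and smooth muscle markers summed to 517.9, 563.7, 515.1, 194.7 and 271.6 CPM against 168.1 to 404.3 CPM, and 2 of 7 rose. The part of these markers in the members' changes was not tested.

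At 24 weeks of STZ edgeR called no member, where 0.448% of all tested genes were called higher and 0.448% lower. There were 4 members at an unadjusted p under 0.05 (Lyz2, Cx3cr1, Ptprc and Laptm5), against 10.7% of all genes, limma on FPKM called none, and DESeq2 called 1, Lyz2, with 0.914% of all genes called higher. The sums were 208, 192, 249.5, 233 and 139 CPM in the diabetic libraries and 105.5, 144, 123, 174 and 128 CPM in the controls, with diabetic library 5 inside the range of the controls. Lyz2 had 30.3, 42.4, 53.8, 36.1 and 23.2 CPM against 16.1, 11.7, 5.23, 32.9 and 14.7 CPM, and 1 control reached into the diabetic range (1.22 ± 0.38, edgeR adjusted p = 0.159). Cx3cr1 had 10.8, 7, 19.6, 9.68 and 6.79 CPM against 6.21, 3.94, 5.38, 6.43 and 3.11 CPM, the single member without overlap, where 1.66% of all tested genes had every diabetic library above every control (1.12 ± 0.51, edgeR adjusted p = 0.420).

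Ptprc had 18.6, 9.13, 15.3, 15.7 and 10.1 CPM against 6.33, 13.3, 4.16, 10.3 and 7.51 CPM, and the groups overlapped (0.73 ± 0.34). Csf1r had 46.5, 62.5, 56.6, 46.8 and 45.9 CPM against 21, 52.1, 51.3, 43.1 and 37.8 CPM (0.34 ± 0.29), again with overlap. Adgre1 (0.25 ± 0.72), Cd68 (1.03 ± 0.99), Cd3e (-0.26 ± 1.04) and Cd79a (0.14 ± 1.5) did not pass the test. The median over the 27 tested members was 0.54, against -0.013 over all genes. As 4 of the 27 passed the filter only through diabetic libraries, this median too is a description and no support. None of 20 other macrophage genes was called, with 4 at an unadjusted p under 0.05. Podocyte markers summed to 4996 CPM in diabetic library 3, which had the highest sum of members, but to 23180 CPM in library 4, which had the next highest.

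**Figure D4:**
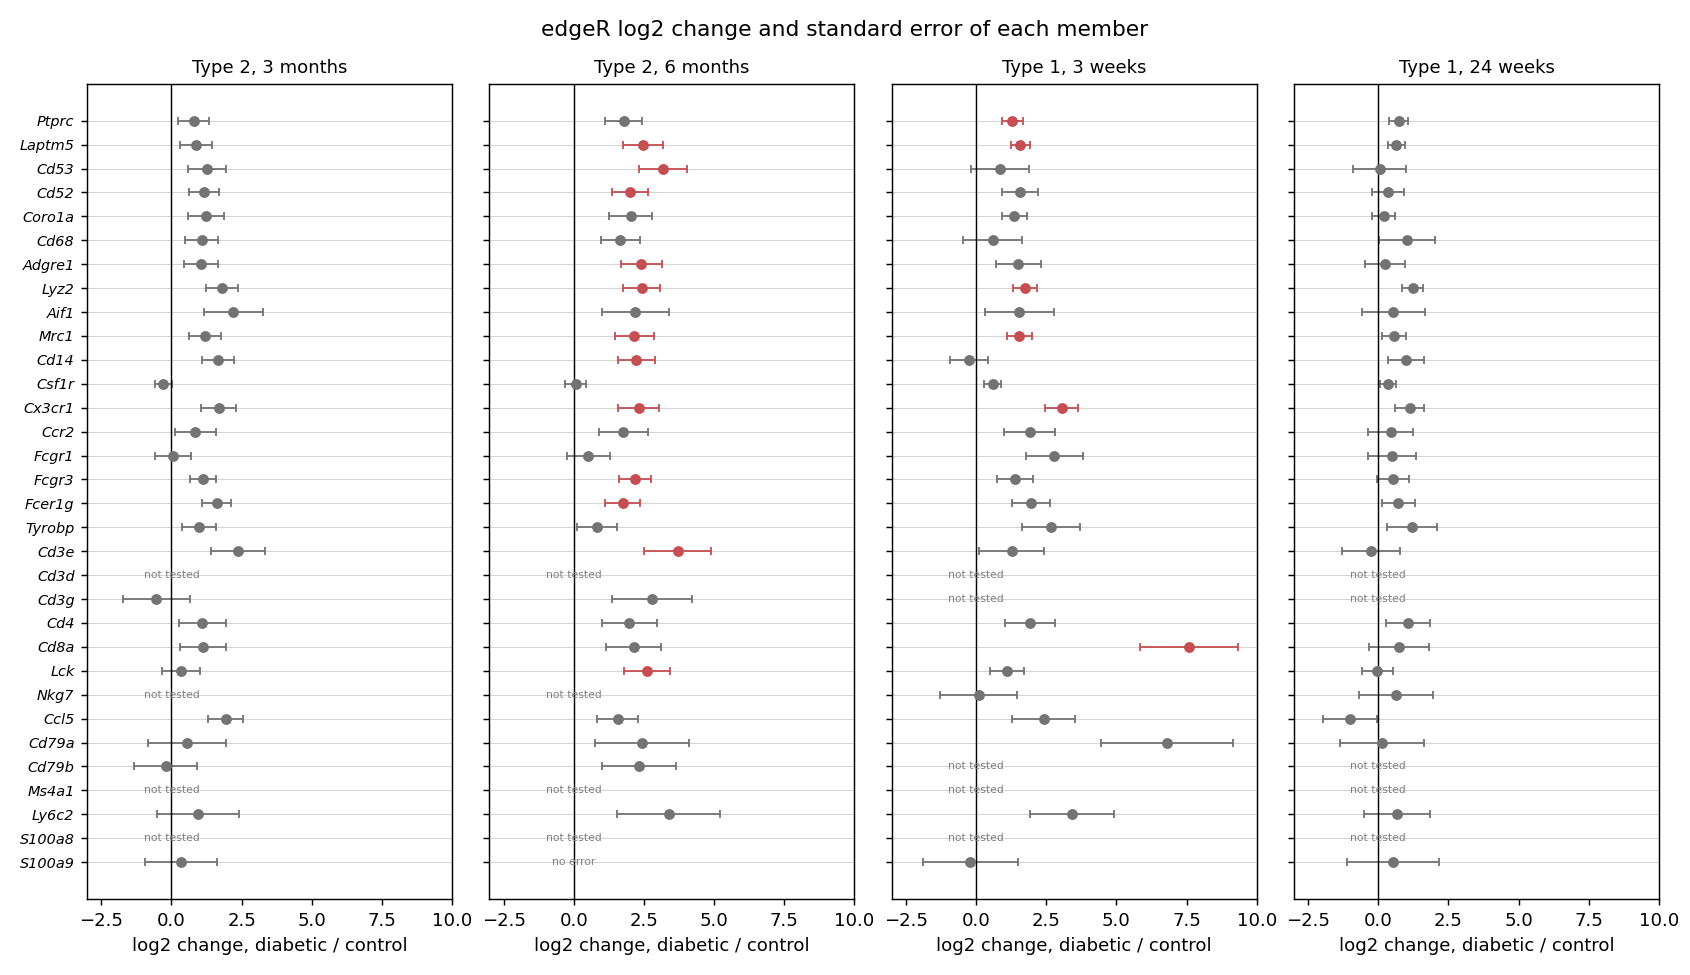
edgeR log2 change (points) and standard error (bars) of each of the 32 genes, diabetic over control, in the 4 comparisons; red marks an adjusted p under 0.05 and grey a gene that was not called. In the 6-month type 2 panel 12 genes are red, from 1.74 to 3.70, while Csf1r lies at 0.07. Genes below the filter on low counts have no point.

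The differences between times and between models were tested as such. The effect at 6 months minus that at 3 months in the type 2 model called none of the 28 tested members by edgeR, limma or DESeq2, with 1 at an unadjusted p under 0.05 by edgeR, Lck (2.29 ± 1.05), where 18.9% of all genes passed that threshold. Lyz2 differed by 0.62 ± 0.86 and Cd3e by 1.32 ± 1.48. No gene of the 17180 was called in this contrast (0% called). The 3-month variance again came from diabetic libraries 4 and 5: without them 12 members were called higher at 6 months than at 3 months, among them Ptprc, Lyz2, Adgre1, Cx3cr1 and Fcgr3, and 6.91% of all genes in that fit were called higher. Libraries were left out there because they stood apart in these very genes, so that count is a description.

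The effect at 24 weeks minus that at 3 weeks of STZ called no member by edgeR, limma or DESeq2 (0% of all genes by edgeR), with 4 at an unadjusted p under 0.05: Cx3cr1 (-1.93 ± 0.76), Cd8a, Ccl5 and Cd79a. Of all genes, 6.71% passed that threshold. Late type 2 effects minus late type 1 effects, between mice of 6 and 8 months, called none by any of these tools, with 0.178% of genes called higher and 0.259% lower. The 6 members at an unadjusted p under 0.05 by edgeR were Lck (2.65 ± 0.96), Cd3e (3.98 ± 1.59), Laptm5 (1.81 ± 0.74), Cd53 (3.12 ± 1.32), Coro1a and Ccl5, 6 of 29 tested, where 15.1% of all genes passed. Early type 2 minus early type 1 effects called none by edgeR or limma, with 0.373% of genes called higher, 0.567% lower and 4 of 29 tested members at an unadjusted p under 0.05. Of all genes 14% passed that threshold, so the members' share was near the background. DESeq2 called 1, Cd8a. Without type 2 diabetic libraries 4 and 5 at 3 months, edgeR called 4 in that contrast, Ptprc, Lyz2, Cx3cr1 and Cd8a, all lower in the type 2 model, where 0.976% of all genes in that fit were called lower. Those libraries were left out because they stood high in the members, which favours lower values in the type 2 model. That count is therefore a description. The labels name eNOS-/- in the type 2 model and no genotype in the type 1 model. The way diabetes arose differs in both contrasts, and age differs in the late contrast only. Type 1 labels give time since STZ and type 2 labels give age alone, so time under diabetes could not be matched. Within a contrast these cannot be told apart.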

How the data were processed

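RNA-seq of 36 podocyte TRAP libraries and 1 whole-kidney library was analysed from the deposited gene table. Per the labels, RNA was DNase-treated and libraries were made with the NuGEN Ovation kit after Covaris fragmentation. Per the submitters' processing notes, cutadapt 1.16, STAR, FastQC and featureCounts 1.15.2 were used with mm9, but 31871 deposited gene IDs matched GENCODE M21 on GRCm38 with 99.981% of positions overlapping, so positions here are those of GRCm38. The authors deposited a whole-number count per gene and an FPKM value, which equalled count over length and library total within 1%. All 37 columns were mapped by name.

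Counts were tested with edgeR 4.0.16 in R 4.3.3 (TMM scaling, filterByExpr by group, robust quasi-likelihood F test, Benjamini-Hochberg threshold 0.05), with 17180 genes over the 17 type 2 libraries, 16279 over the 19 type 1 libraries, and 18511 over all 36 for contrasts between models. The standard error is the log2 change divided by the square root of F. The filter removed 4 members in the type 2 model and 5 in the type 1 model. CPM are TMM-scaled. Alternatives used DESeq2 1.42.0 size factors and tests, limma 3.58.1 on log2 of the deposited FPKM plus 0.1 or 1, no filter, other sets of libraries, a replicate block and each library left out. The code was tested on simulated data. Python 3.11.15, pandas 2.3.3 and matplotlib 3.10.9 drew the figures.

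Totals ranged from 6702120 to 37786025 counts over the TRAP libraries. The lowest chi-square per gene between libraries of a group was 15.1 over 65 pairs, so no library looked deposited more than once. The members and the 11 other gene lists were chosen with earlier results of these data known. By rule, values in every library are given for at most 8 called members with the lowest p in a comparison, Ptprc, Adgre1, Csf1r, Cd68, Lyz2, Cd3e, Cd79a and S100a8 are named at least once, and at most 3 called genes of each other list are named. Other genes named, such as Cx3cr1 at 6 months, were chosen after their values were seen. Protein sequences were not used here, and the driver of the tagged protein is not reported here.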

Additional observations from a re-analysis of the deposited data

Results flagged for a closer look

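A sample was looked at again where it stood apart from the rest of its group by Dixon's test. This held for 17 of 116 groups of values. Chance gives about 1 in 20 only for independent, normally spread values, which CPM of related genes with few counts are not. Where a single library had any count, as for S100a8 in several groups, it stood apart by construction. The number of flags therefore cannot be compared with chance and is no sign of unusual libraries.

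In the type 2 model at 3 months, control library 1 had the lowest Lyz2, 5.76 CPM against 8.11 to 8.85 in the others. Diabetic library 4 had the highest Cx3cr1, 30.9 CPM against 2.54 to 9.59, and the highest Cd3e, 5.45 CPM against 0 to 0.778. S100a8 was found in diabetic library 2 alone, at 0.259 CPM.

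At 6 months of the type 2 model only the controls could be examined this way, since the diabetic group has 3 libraries. Control library 1 had no Cd53 (0 CPM against 0.627 to 0.678) and the highest Cd68 (2.09 CPM against 0.712 to 0.916). Control library 2 had the highest Csf1r (71.4 CPM against 29.4 to 34.5) and the highest sum of the 32 genes (148 CPM against 93 to 98.7). S100a8 was found in control library 3 alone, at 0.289 CPM.

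At 3 weeks of STZ, control library 3 had the highest Cx3cr1, 4.12 CPM against 1.13 to 1.39, and S100a8 was found in control library 4 alone, at 0.214 CPM. Diabetic library 4, with 14320 detected genes, had no Cd8a (0 CPM against 1.71 to 2.07) and the highest Cd79a (4.28 CPM against 0 to 0.122).

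At 24 weeks of STZ, control library 5 had the highest Cd68, 2.76 CPM against 1.13 to 1.51, and S100a8 was found in control library 2 alone, at 0.0679 CPM. Diabetic library 1 had the highest Cd79a, 1.28 CPM against 0.11 to 0.354, and diabetic library 5 the highest S100a8, 0.329 CPM against 0 to 0.0762. The S100a8 values rest on at most 8 counts in any library.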

How the results depend on the processing

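Lymphocyte and granulocyte genes had few counts, and no test of depth was made on them. Where a value changed, the cause was not tested unless fewer libraries were fitted. Of the single-gene values under an alternative, 678 kept direction and call, 81 lost the call, 28 gained one and 11 reversed. For type 2 at 3 months (0 members, 685 genes called), DESeq2 called 4 members and 1256 genes, limma on FPKM called 440 genes with pseudocount 0.1 and 419 with 1, and leaving out diabetic libraries 4 and 5 called 418. Then Lyz2 was at -0.14, Ptprc -0.82, Laptm5 -0.52, Cx3cr1 -0.11, Adgre1 -0.78 and Cd68 -0.21, and without diabetic library 4 alone Ptprc was at -0.06. For type 2 at 6 months (12 members, 3934 genes), there were 7 members and 3089 genes with no filter, 20 members and 4066 genes by limma with pseudocount 1, and 5 members with the number of detected genes as a covariate, an alternative chosen after seeing the data. Genes numbered 2326 from a fit of the compared groups alone and 2571 with the covariate. Csf1r reversed to -0.07, -0.04 and -0.01 without control library 1, 3 or 4 and to -0.20 without diabetic library 1. For type 1 at 3 weeks (6 members, 1058 genes), there were 11 members by DESeq2, 11 by limma with either pseudocount, 3 from the compared groups alone and 1 with the covariate; genes numbered 1809 by DESeq2, 1036 and 903 by limma with pseudocount 0.1 and 1, 1636 with all 36 libraries, 599 from the compared groups and 405 with the covariate. For type 1 at 24 weeks (0 members, 146 genes), DESeq2 called 1 member and 446 genes, and the fit of all 36 libraries 271 genes. Without type 2 diabetic libraries 4 and 5, 12 members were called in the difference between 6 and 3 months and 4 in the early difference between models. These libraries were left out for standing high in the members, so values without them are descriptions. With all libraries, DESeq2 called 1 member in the early difference. The median TRAP to kidney ratio was 0.703 in FPKM.

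With each library left out in turn, the type 2 comparison called 0 to 3 members and 404 to 737 genes at 3 months, and 1 to 15 members and 1932 to 5350 genes at 6 months. The type 1 comparison called between 4 and 8 members and between 611 and 1350 genes early, and between 0 and 1 and between 67 and 262 late. The log2 change of Ptprc in type 2 at 3 months ranged from -0.06 to 1.06, and that of Csf1r at 6 months from -0.20 to 0.44. It gave 0 to 1 members for the early difference between models, and a kidney ratio of 0.529 to 0.599. Same-numbered libraries did not deviate together (correlations of -0.215 to 0.206 in type 2 and -0.124 to 0.207 in type 1), so no pairing by number was seen. This check cannot exclude that some libraries were prepared together. With a replicate block, 0, 16, 7 and 0 members and 535, 4104, 1202 and 157 genes were called in the 4 comparisons, in the order above.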
